A study of Mus musculus with 24 samples.

Results

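The YAP-TEAD pathway and CCN genes were followed here as 10 genes (Ccn1, Ccn2, Ankrd1, Amotl1, Amotl2, Yap1, Wwtr1, Tead1, Lats2 and Ajuba) of 53379 genes in the mRNAseq count table. They were chosen by name and selected on their levels in kainic acid (KA) against sham (SH) mice in each cell fraction, so their KA against SH values, and the counts of them past a threshold in those contrasts, are a description and support nothing. All 10 passed the filter on low counts and were among the 37598 genes tested. Adult male C57/BL6N mice, acquired at 8 weeks of age and kept for 4 weeks before use, received kainic acid (KA) or saline (SH) by deep cortical injection, and the right hippocampus was taken 24 hours later. Kainic acid is a glutamate receptor agonist that elicits status epilepticus in this model. Hippocampi of 8 mice per treatment were combined into 3 pools, replicate 1 of 4 mice and replicates 2 and 3 of 2 mice each, and nuclei of each pool were sorted by NeuN into NeuN+ nuclei (neurons) and NeuN- nuclei (glia, with every other NeuN- cell of the tissue). This gave 4 groups of 3 libraries: SH neurons, KA neurons, SH glia and KA glia. No group carried a transgene. All mice, KA and SH, also received medetomidine and ketamine as anesthesia, atipamezole to end it, and buprenorphine afterwards. KA mice without convulsive seizures were excluded by the study.

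YAP (Yap1) and TAZ (Wwtr1) are transcriptional co-activators that bind DNA through TEAD factors such as Tead1. The Hippo kinases, among them Lats2, phosphorylate both and hold them in the cytoplasm, angiomotin-like proteins (Amotl1, Amotl2) bind them at junctions, and Ajuba is a LIM protein that restrains the LATS kinases. Ccn1 (Cyr61) and Ccn2 (Ctgf), secreted matricellular proteins that bind integrins, and Ankrd1, a muscle ankyrin repeat protein, are the targets most often read as a measure of YAP-TEAD output, and Amotl1 and Amotl2 are also described as targets. In brain the pathway is best known from astrocytes, neural stem cells and vessels.

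A window of 250 bases before to 50 bases after the transcription start (RefSeq, GRCm38.p6) was at hand for 8 of the 10 genes, and not for Ccn2 and Tead1. The letters GGAATG or, on the other strand, CATTCC, the core that TEAD factors bind, were found in the windows of 7 of these 8 genes (Ccn1, Ankrd1, Amotl2, Yap1, Wwtr1, Lats2 and Ajuba) and not in that of Amotl1. Of all 27025 genes with windows of the same length, 16.6% held these letters, and 16 of 48 other genes of the pathway with a window did. AP-1 letters (TGANTCA, read on both strands) and the CArG box of SRF were in none of the 8, against 9.0% and 1.8% of all genes. The 5 stretches shown are those of the co-activators and of target genes with the letters upstream of the start, 5′ to 3′ on the gene's strand, with the TEAD letters in capitals:
Ccn1: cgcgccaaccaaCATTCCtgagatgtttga
Amotl2: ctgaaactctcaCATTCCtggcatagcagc
Ankrd1: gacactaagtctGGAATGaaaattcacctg
Yap1: cgggagtctgcaGGAATGtagcgacgcgca
Wwtr1: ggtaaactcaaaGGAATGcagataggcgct
The Ccn1 stretch lies at chr3:145650071-145650100 on the minus strand and its capitals begin 103 bases before the start. Those of Amotl2 (chr9:102717727-102717756, plus strand), Ankrd1 (chr19:36119950-36119979, minus strand) and Yap1 (chr9:8004720-8004749, minus strand) begin 65, 123 and 141 bases before it. That of Wwtr1 (chr3:57576029-57576058, minus strand) is shared by both of its annotated starts, 136 and 170 bases before them. Ankrd1 held a further match, not shown, that begins 210 bases before its start. A match describes the letters only, and no binding was measured.

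Library totals ran from 7769400 to 40364768 counts, and the 10 genes had between 4 and 3717 counts in a library. SH glia replicate 1 and KA glia replicate 2 were made from 0.05 ng of RNA with 15 PCR cycles, against 1 ng and 10 cycles for the others. The replicate 3 libraries stood apart within each group by the fewest genes with a count. Per the study's methods, mRNA libraries were sequenced as 75 bp single reads or 150 bp paired ends on different instruments. Those methods do not say which library had which. Rbfox3, the gene of NeuN, was at 225 ± 53.7 CPM (counts scaled to library size; SD, n = 3) in SH neurons and 44.7 ± 17.9 CPM in SH glia, and 9 of 10 neuron markers were higher in SH neurons at FDR (false discovery rate) 0.05. All 8 oligodendrocyte, all 5 oligodendrocyte precursor (OPC), 9 of 10 microglia and 9 of 10 astrocyte markers were higher in SH glia. Endothelial markers were low in both, with a summed CPM over 7 genes of 16.7 to 34.1 in SH neurons and 12.7 to 47.2 in SH glia. In pooled nuclei, fewer cells of a type and less RNA per cell cannot be told apart.

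Ccn1 (ENSMUSG00000028195, chromosome 3, 145646976 to 145649981, GRCm38) was the member with the largest difference in both fractions. In neurons it was at 2.72, 2.07 and 4.12 CPM in the SH libraries 1 to 3 and at 7.35, 18.5 and 53.0 CPM in the KA libraries. Every KA library was above every SH library, and the KA libraries spanned a wide range. The logFC (log2 fold change, KA against SH) was 3.14 ± 0.60 (SE), a fold of 8.84. In glia Ccn1 was at 15.8, 28.8 and 23.0 CPM in SH and 66.9, 71.4 and 153 CPM in KA, again without overlap, with a logFC of 2.10 ± 0.56. The logFC was 1.04 ± 0.78 (SE) greater in neurons than in glia.

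Ccn2 (chromosome 10, 24595442 to 24598683), the other CCN target, had KA values above all SH values in both fractions. Its neuronal level was 15.2, 6.15 and 7.63 CPM in SH and 23.7, 22.6 and 34.9 CPM in KA, a logFC of 1.49 ± 0.43. Its glial level was 3.86, 5.84 and 4.66 CPM in SH and 11.2, 11.5 and 26.3 CPM in KA, a logFC of 1.77 ± 0.44. Of its exon bases 23.2% are overlapped by Gm15270 on the opposite strand, a gene with 3 to 20 counts in a library. Counting by default settings takes no strand into account.

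Ankrd1, the third usual readout, had low counts and a small logFC with a wide SE in both fractions. Such an SE does not tell a rise like that of Ccn2 from no change. In neurons it lay between 1.18 and 3.41 CPM in SH and between 2.67 and 2.99 CPM in KA (logFC 0.22 ± 0.95). In glia it was at 6.59, 5.84 and 0.12 CPM in SH and 7.39, 5.58 and 0.782 CPM in KA (logFC 0.13 ± 0.95). Both replicate 3 glia libraries were far below the others, and the SH and KA values overlapped in both fractions.

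**Figure D1:**
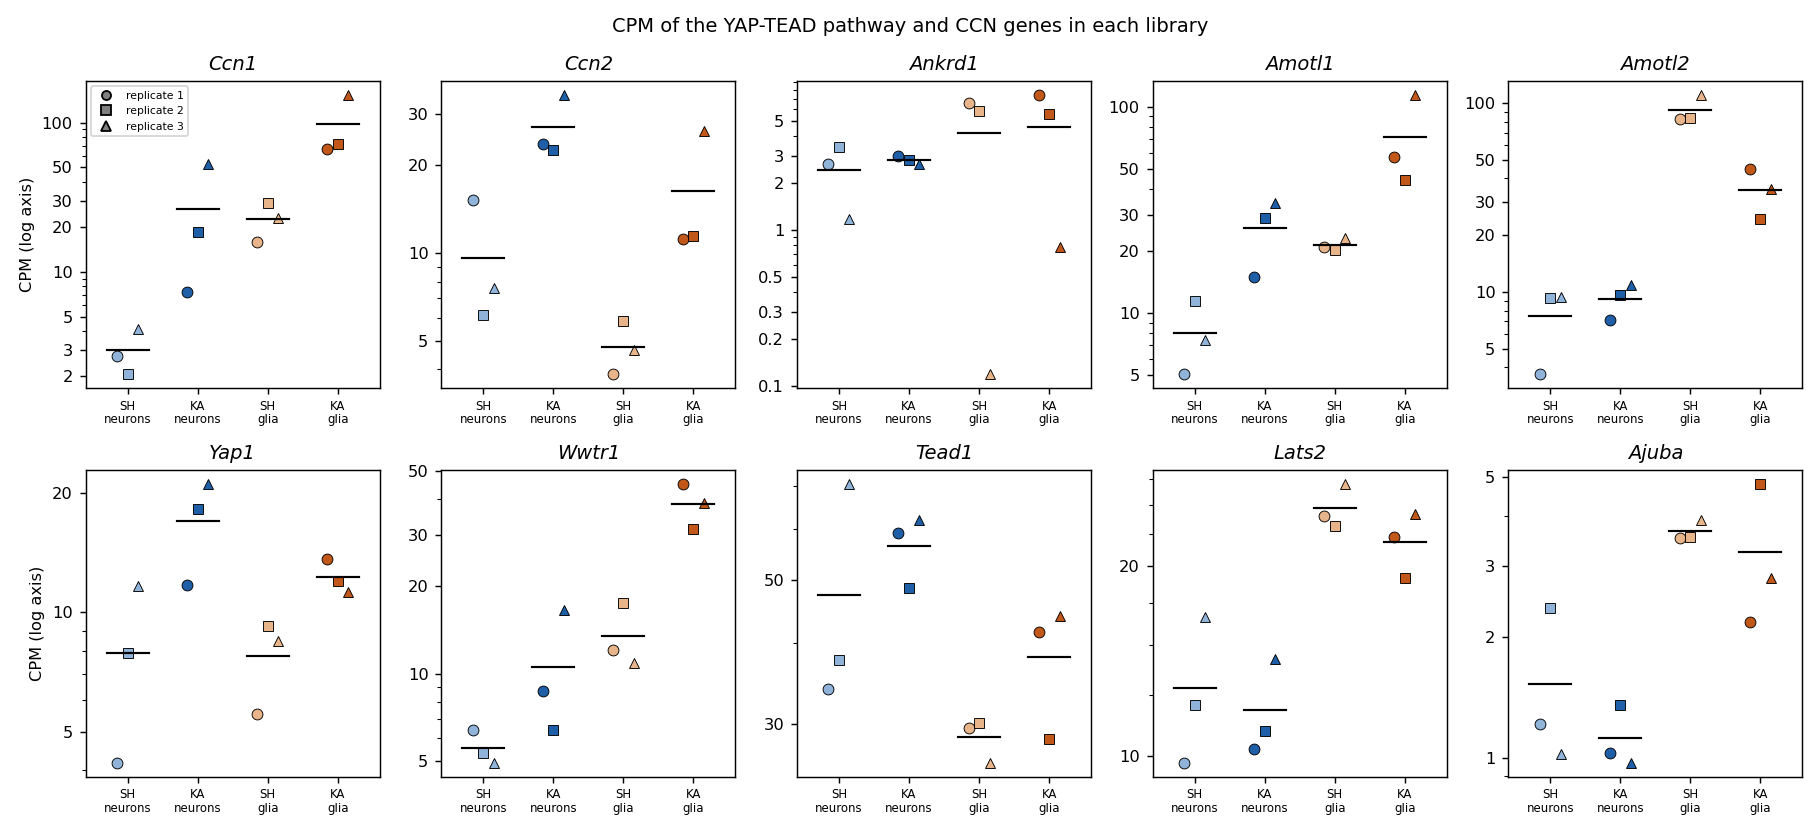
CPM on log axes of the 10 genes in the 12 libraries, with 1 panel per gene, a symbol per replicate and a line at the group mean (n = 3). Ccn1, Ccn2, Amotl1, Yap1 and Wwtr1 have every KA point above every SH point in neurons and in glia. In neurons the gap is narrow for Wwtr1 (lowest KA 6.421, highest SH 6.416 CPM) and Yap1 (11.702 and 11.675 CPM). Glial Amotl2 has every KA point (24.4 to 45.1 CPM) below every SH point (82.4 to 111 CPM).

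The angiomotin-like genes went apart. Amotl1 (chromosome 9, 14541966 to 14645056) was at 5.08, 11.5 and 7.43 CPM in SH neurons and at 15.0, 28.8 and 34.1 CPM in KA neurons, a logFC of 1.70 ± 0.42. In glia it was at 20.9, 20.2 and 23.1 CPM in SH and 57.4, 44.1 and 114 CPM in KA, a logFC of 1.75 ± 0.42. The groups did not overlap in either fraction, and the logFC of the fractions differed by less than its SE.

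Amotl2 (chromosome 9, 102716672 to 102733418) was lower in KA glia, at 45.1, 24.4 and 35.3 CPM against 82.4, 83.4 and 111 CPM in SH glia, a logFC of -1.40 ± 0.37 or a level 2.64 times lower. In neurons it was at 3.69, 9.27 and 9.39 CPM in SH and 7.09, 9.72 and 10.9 CPM in KA, with overlapping groups and a logFC of 0.31 ± 0.37. Marker lists of glial cells were measured in the same libraries. The summed CPM of the 8 oligodendrocyte markers ran from 11980 to 25012 in SH glia and from 6489 to 12206 in KA glia, with all 8 at a negative logFC and 4 without overlap. The sum of the 5 OPC markers ran from 838 to 1474 in SH and from 393 to 630 in KA, and that of the 10 astrocyte markers from 2143 to 3028 and from 1294 to 2405. Of the astrocyte markers 3 had a positive logFC, and Gfap (119 to 176 CPM in SH, 360 to 720 CPM in KA) and Aqp4 (72.4 to 102 CPM in SH, 130 to 158 CPM in KA) were higher in every KA library than in any SH library, while 5 were lower in every one. The 10 microglia markers summed to 1062 to 2551 in SH and 745 to 1599 in KA, with overlap. Between same-numbered libraries the oligodendrocyte, OPC, astrocyte and microglia sums were all lower in KA every time, as was Amotl2. No marker of these lists was at 0 counts in all libraries of a group. Their part in the Amotl2 difference was not tested.

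**Figure D2:**
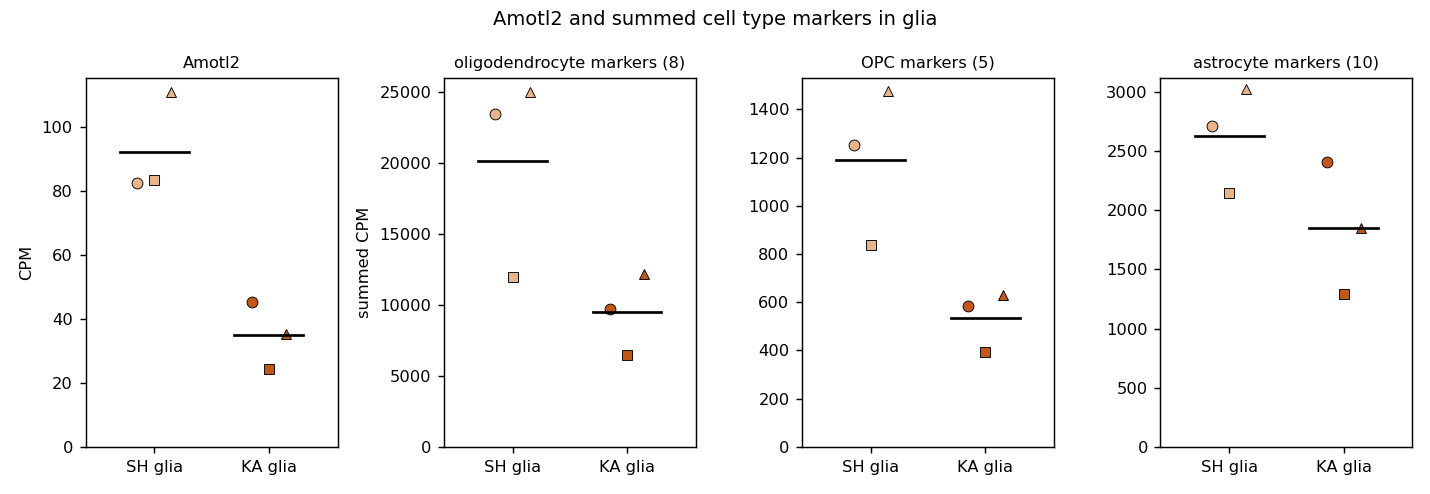
CPM of Amotl2 and summed CPM of oligodendrocyte, OPC and astrocyte markers in the 6 glia libraries, with axes from 0, a symbol per replicate as in the plot of CPM by library and a line at the mean. Amotl2 and the OPC sum are lower in every KA library than in any SH library. The oligodendrocyte and astrocyte sums overlap between the groups but are lower in KA in every same-numbered pair.

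The co-activators Yap1 and Wwtr1 were higher in KA. Yap1 (chromosome 9, 7931999 to 8004596) was at 4.18, 7.88 and 11.7 CPM in SH neurons and 11.7, 18.3 and 21.1 CPM in KA neurons, a logFC of 1.11 ± 0.41, with the lowest KA library just above the highest SH library. In glia it was at 5.55, 9.25 and 8.46 CPM in SH and 13.6, 12.01 and 11.3 CPM in KA, a logFC of 0.66 ± 0.41. Wwtr1 (chromosome 3, 57455649 to 57575910) was at 12.1, 17.5 and 10.9 CPM in SH glia and 45.1, 31.4 and 38.7 CPM in KA glia, a logFC of 1.51 ± 0.37 with no overlap. In neurons it was at 6.42, 5.31 and 4.94 CPM in SH and 8.71, 6.42 and 16.5 CPM in KA, with a logFC of 0.93 ± 0.37 and the lowest KA library at the level of the highest SH library.

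Tead1, Lats2 and Ajuba had overlapping KA and SH values in both fractions. The DNA-binding partner Tead1 lay between 34.0 and 70.5 CPM in SH neurons and between 48.6 and 61.8 CPM in KA neurons (logFC 0.26 ± 0.33), and between 26.1 and 30.1 CPM in SH glia and 28.4 and 44.0 CPM in KA glia (0.41 ± 0.33). The kinase Lats2 had a logFC of -0.11 ± 0.31 in neurons and -0.18 ± 0.31 in glia. Of its exon bases 42.4% are shared on the same strand with Gm49361, which had 0 counts in every library, and default counting leaves out reads that fall on both. Ajuba, below 5 CPM in every library, had a logFC of -0.45 ± 0.61 in neurons and -0.16 ± 0.60 in glia.

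**Figure D3:**
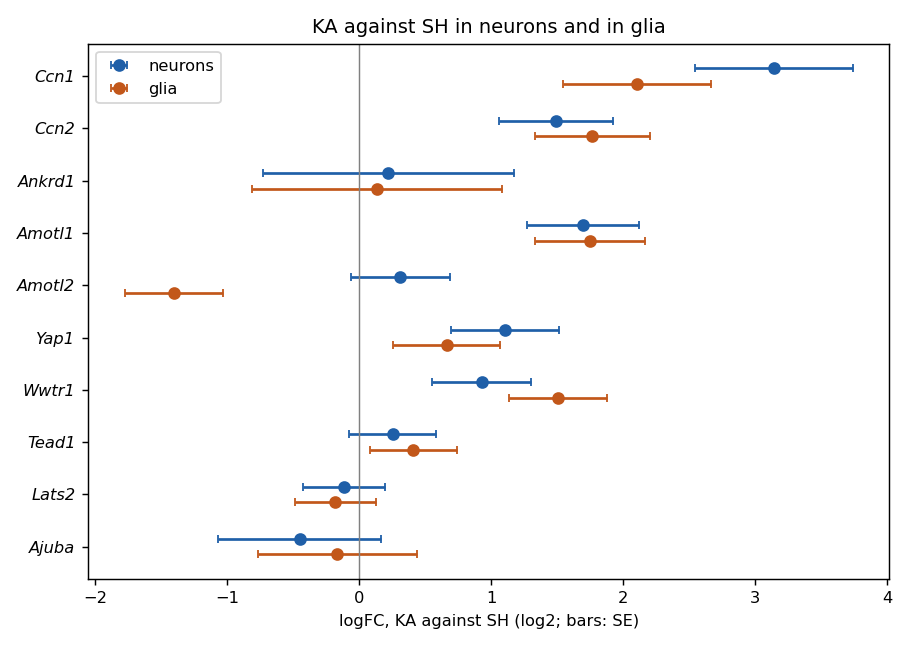
The logFC of KA against SH (log2, bars SE) for the 10 genes in neurons and in glia, fitted over 12 libraries. Ccn1 is farthest to the right (3.14 in neurons, 2.10 in glia), and Amotl2 is the gene whose points fall farthest apart, at 0.31 and -1.40.

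At FDR 0.25 in edgeR's quasi-likelihood test, the threshold of the study's methods, 1 of the 10 was higher in KA neurons (Ccn1) and none was lower, where 0.279% of all genes tested were higher and 0.0612% lower. In glia 4 were higher (Ccn1, Ccn2, Amotl1, Wwtr1) and 1 lower (Amotl2), where 0.442% of all genes were higher and 0.306% lower. All 3 KA libraries were above all 3 SH libraries for 5 of 10 members in neurons and 5 in glia, with 5.27% and 3.61% of all genes doing so. In neurons Wwtr1 (6.421 against 6.416 CPM) and Yap1 (11.702 against 11.675 CPM) were among these by a narrow gap. They were below for 0 and 1, against 4.45% and 3% of all genes. As these contrasts served to choose the genes, the counts describe them and nothing more. The median logFC of the 10 was 0.62 in neurons and 0.54 in glia, beside 0.00048 and 0.14 over all genes tested. With replicate number as a block 4 were called in neurons (Ccn1, Ccn2, Amotl1 and Yap1) and the same count of 5 in glia, in a fit that called 3.05% of all genes in neurons and 7.64% in glia. Fitting the fractions separately, as the study's methods do, gave 3 in each, beside 2.05% and 0.436% of all genes. The study's own lists hold Ccn1 (as Cyr61) and Amotl1 as upregulated in neurons. In glia they hold Ccn1, Amotl1 and Wwtr1, and neither Ccn2 nor Amotl2. Without both low-input libraries, or without all replicate 3 libraries, no member was called in glia. Leaving out 1 library ended every glial member call in the case of SH glia replicate 1, SH glia replicate 3, KA glia replicate 2 or KA glia replicate 3, and left 2 without KA glia replicate 1. The Ccn1 call in neurons was lost without SH neurons replicate 1, SH neurons replicate 2 or KA neurons replicate 3.

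The sorted fractions of sham tissue were compared next. The rule does not name this contrast, but its 6 SH libraries also entered the contrasts that chose the genes, so it is not independent of the choice. At FDR 0.05 in edgeR, 4 of 10 members were higher in SH glia and none in SH neurons, where 4.67% of all genes tested were higher in glia and 6.05% higher in neurons. Amotl2 differed most, with a logFC (neurons against glia) of -3.62 ± 0.41, 12.3 times higher in glia (FDR 8.0e-05). Ccn1 was 7.58 times higher in glia (logFC -2.92 ± 0.59, FDR 0.0037). Amotl1 (logFC -1.41 ± 0.42, FDR 0.038) and Wwtr1 (-1.28 ± 0.38, FDR 0.036) were also higher in glia. Lats2 missed the threshold (-0.95 ± 0.31, FDR 0.062) and was called with the pool as a replicate block, in which the 2 fractions of a pool come from the same mice (FDR 0.0058), a fit that called 21.7% of all genes. Without the low-input libraries, or without SH neurons replicate 1, SH neurons replicate 3 or SH glia replicate 2, only 2 of the 10 were called. Ccn1 and Amotl2 kept their calls when any 1 of the 6 libraries was left out.

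Ccn2 had the opposite sign to Ccn1. Its SH neuron libraries (6.15 to 15.2 CPM) were above its SH glia libraries (3.86 to 5.84 CPM), with a logFC of 1.01 ± 0.43 that did not pass (FDR 0.19). Tead1 (logFC 0.73 ± 0.33, FDR 0.23), Ajuba (-1.26 ± 0.61, FDR 0.28), Ankrd1 (-0.78 ± 0.95, FDR 0.82) and Yap1 (0.03 ± 0.41, FDR 0.99) did not pass either. The sign for Yap1 turned under RLE scaling, in which the median logFC of all genes moved from 0.011 to -0.136.

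**Figure D4:**
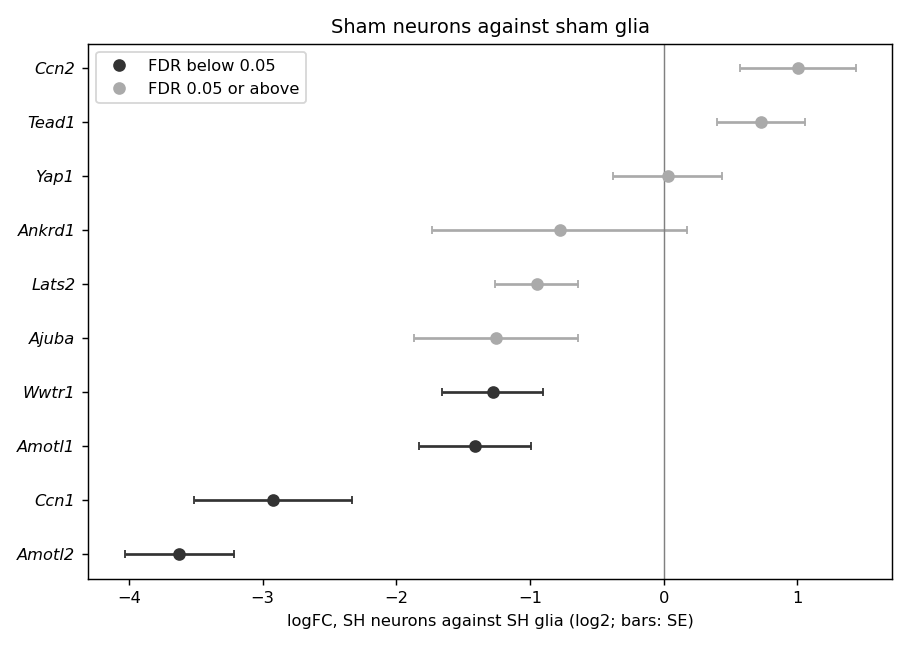
The logFC of SH neurons against SH glia (log2, bars SE) for the 10 genes in order of size, with genes below FDR 0.05 in dark. The 4 dark points, Amotl2, Ccn1, Amotl1 and Wwtr1, lie between -3.62 and -1.28, on the side of glia.

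Glial RNA in the neuron libraries was measured beside Ccn1. The median level of 10 astrocyte markers in SH neurons was 10.996%, 12.6% and 26.03% of that in the SH glia library of the same pool, and in KA neurons 10.7%, 31.4% and 36.3% of that in KA glia. Ccn1 in neurons was 17.2%, 7.17% and 17.9% of its glial level in SH and 10.98%, 25.8% and 34.6% in KA, by pool. The pools stood in the same order for Ccn1 and for the astrocyte markers in KA and in a different order in SH. The median ratio over the 8 oligodendrocyte markers was 1.47%, 2.56% and 4.08% in SH and 1.11%, 5.17% and 4.31% in KA, and that over the 10 microglia markers was 3.35%, 5.08% and 3.53% in SH and 4.36%, 8.21% and 6.52% in KA. Neuronal Ccn2 exceeded its glial level in all 6 pools, at 105% to 394%. Markers of vessels, of cells around them, of fibroblasts and of blood cells were also summed. In glia the 7 endothelial markers summed to 12.7 to 47.2 CPM in SH and 21.8 to 67.7 CPM in KA. The 7 mural markers summed to 72.8 to 145 and 43.3 to 98.9 CPM. The 5 fibroblast markers summed to 44.7 to 69.4 and 29.5 to 64.6 CPM, and the 6 leukocyte markers to 2.81 to 18.2 and 6.10 to 24.2 CPM. SH and KA overlapped in each. Between same-numbered libraries, though, the endothelial and leukocyte sums were higher in KA every time, and the mural sum was lower every time. The part of any of these cells in the values of Ccn1, Ccn2, Amotl1 and Wwtr1 was not tested.

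Levels between genes were compared per length, as RPKM (reads per kilobase of exon, scaled by library size). In SH glia Amotl2 (14.7 ± 2.55 RPKM, SD, n = 3) and Ccn1 (11.2 ± 3.22) were highest, with overlapping values, and were apart from Lats2 (3.55 ± 0.29), the next. Yap1 (0.837 ± 0.211) was lowest there and overlapped with Ajuba. In KA glia Ccn1 (48.1 ± 24.0) stood alone above Wwtr1 (8.03 ± 1.44), Amotl1, Ccn2 and Amotl2 (5.55 ± 1.65), whose neighbours in the order overlapped. In SH neurons the order ran from Tead1 (3.49 ± 1.48) and Ccn2 (3.38 ± 1.69) to Ajuba (0.420 ± 0.199), and every neighbouring pair overlapped. In KA neurons Ccn1 (13.02 ± 11.8) and Ccn2 (9.46 ± 2.38) overlapped at the top. Tead1 (4.17 ± 0.52) came next, apart from Ccn2 and overlapping with Ccn1.

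The 67 other genes of the pathway, in 6 lists by role, were all tested and mostly did not pass. In neurons 1 was upregulated at FDR 0.25 in edgeR and none downregulated. This was Ccn4 (Wisp1), a further CCN gene, at 2.72, 2.07 and 3.22 CPM in SH and 7.69, 15.7 and 13.8 CPM in KA (logFC 2.22 ± 0.48, FDR 0.14). In glia 2 were upregulated and 1 downregulated. Itga5, the fibronectin receptor subunit, rose from 13.99, 18.9 and 13.8 CPM to 85.5, 95.0 and 278 CPM (logFC 3.30 ± 0.61, FDR 0.044) and was called with any 1 glia library left out. Myof, a membrane repair ferlin listed among YAP-TEAD targets, rose from 7.96, 13.3 and 4.90 CPM to 24.1, 19.5 and 28.9 CPM (logFC 1.47 ± 0.39, FDR 0.23). Ccn3 (Nov), a CCN gene that was higher in SH neurons than in SH glia (FDR 0.00050), fell in glia from 9.97, 22.0 and 29.4 CPM to 5.65, 4.74 and 10.4 CPM (logFC -1.56 ± 0.41, FDR 0.23). KA and SH values of Ccn3 overlapped in glia. In neurons Ccn3 was at 161, 108 and 149 CPM in SH and 66.5, 58.1 and 53.1 CPM in KA, without overlap, with a logFC of -1.24 ± 0.40 that did not pass (FDR 0.70) and was called with the replicate block. In the glia libraries neuron markers had a summed CPM of 490 to 1579 in SH and 347 to 1311 in KA. The part of neuronal RNA was not tested.

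By role, 0 of 16 genes of the Hippo kinase cassette, 0 of 12 TEADs and cofactors and 0 of 10 SRF-MRTF genes passed in either fraction in edgeR or DESeq2, with 1 gene of the cassette at an unadjusted p below 0.05 in each fraction and 0 of the other 2 lists. Of all genes tested 3.2% in neurons and 4.79% in glia had such a p, and DESeq2 called 0.942% and 1.81%. The YAP-TEAD target list, which does not hold the members, had 0 of 16 in neurons and 1 of 16 in glia, with median logFC of 0.17 and 0.08. At an unadjusted p below 0.05 it had 2 in neurons and 3 in glia, and DESeq2 called 1 in each. All 3 KA libraries were above all 3 SH libraries for 3 of its genes in neurons and 4 in glia. Of all genes tested 5.27% and 3.61% did so. The largest difference in a list with no call was for Frmd6 (1.03 ± 0.36, FDR 0.87) in neurons and Wwc1 (-0.76 ± 0.32, FDR 0.88) in glia for the kinase cassette, and Vgll2 in both fractions for the cofactors (1.603 ± 1.37 and 1.14 ± 1.38, each at FDR 1.00). For targets in neurons it was Igfbp3 (1.52 ± 0.42, FDR 0.42), for CCN receptors in neurons Itga5 (2.21 ± 0.59, FDR 0.36), and for SRF-MRTF genes Mrtfb (-0.59 ± 0.35) in neurons and Tagln (1.74 ± 1.42) in glia, each at FDR 1.00. Itga5 is among the upregulated genes in the study's own list for neurons, which came from a separate fit. The median of the 67 was 0.08 in neurons and 0.07 in glia. With the replicate block 7 of the 67 passed in neurons and 11 in glia, where 3.05% and 7.64% of all genes did, and without all replicate 3 libraries none did in either. The Ccn4 call was lost without any 1 neuron library other than KA neurons replicate 1, the Myof call without any 1 glia library other than SH glia replicate 2, and the Ccn3 call without SH glia replicate 2 or 3 or KA glia replicate 1 or 2.

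**Figure D5:**
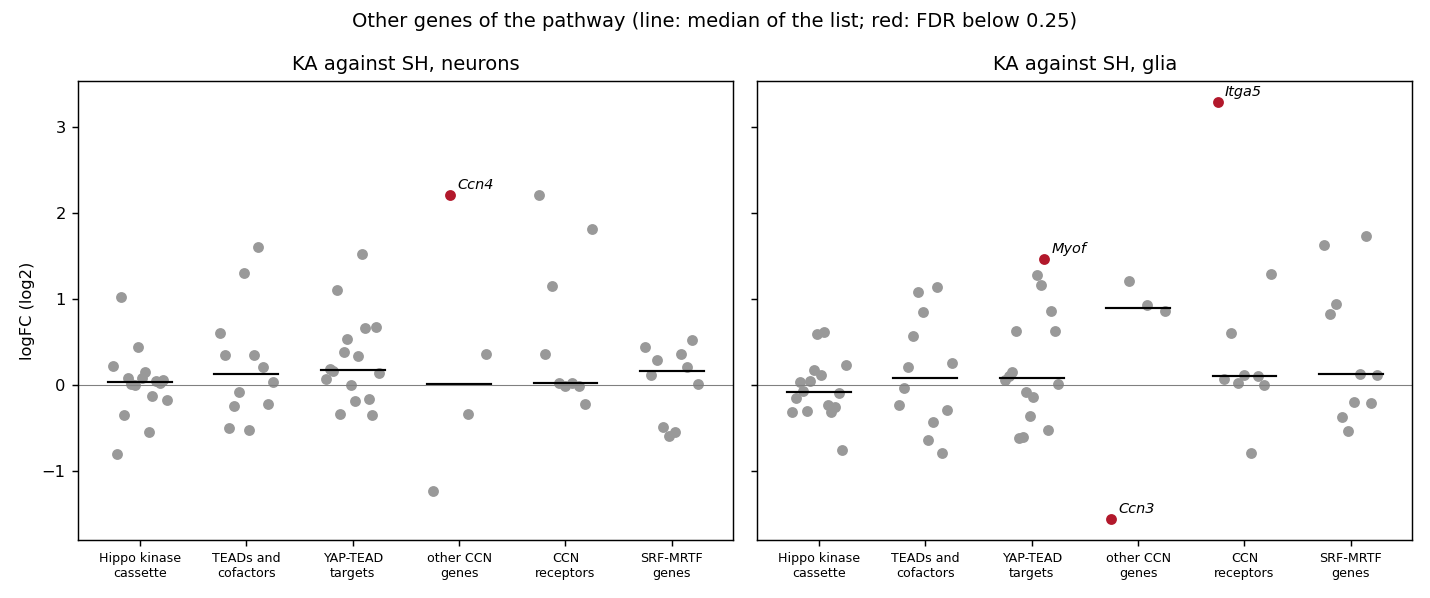
The logFC of KA against SH (log2) of the 67 other genes of the pathway by list, in neurons and in glia, 1 point per gene with a line at the list's median. The 4 points in red are below FDR 0.25 (Ccn4 in neurons; Itga5, Myof and Ccn3 in glia), and the other points spread on both sides of 0.

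The genes whose log2 CPM over the 12 libraries was most like that of Ccn1, among 16810 genes with at least 5 CPM in 3 libraries, were Trib1 (Pearson r = 0.969), Rgs20 (0.966), Bag3 (0.962), Gfap (0.958) and Parp3 (0.953). The libraries share fraction, treatment and pool, so r describes likeness of pattern over the 4 groups. Gfap, the intermediate filament of astrocytes, was at 143 ± 29.1 CPM in SH glia and 549 ± 181 CPM in KA glia, a logFC of 1.94 ± 0.65 that did not pass (FDR 0.55 in edgeR).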

How the data were processed

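Per the labels and the study's methods, mRNA of sorted nuclei was amplified with SMART-Seq v4, reads were trimmed with Trim Galore 0.4.3 (the submitters' processing notes) and aligned to mm10 with Rsubread, and uniquely mapped reads were assigned to GENCODE genes by featureCounts with default parameters. The deposited values are raw counts per gene and library, made by the authors. RRBS data were not used here.

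Symbols came from GENCODE annotation of GRCm38, and 105 of 53379 identifiers without one were left out. Counts were filtered by filterByExpr (minimum count 10, minimum total 15), scaled by TMM and fitted in edgeR 4.0.16 (R 4.3.3) with 4 group means and the quasi-likelihood test, legacy=TRUE. P-values were adjusted by Benjamini-Hochberg over 37598 genes. FDR 0.25 was used for KA against SH and 0.05 for SH neurons against SH glia. SE is the logFC divided by the root of F. CPM and RPKM use TMM library sizes. The scripts were tested on simulated data.

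Members and lists were chosen with earlier results of these data known. Named genes were the 10 members, every pathway gene past FDR 0.25, the largest difference in each list with none, and the 5 genes most like Ccn1. Same-numbered KA and SH libraries deviated together (r 0.279 to 0.624 in neurons, 0.502 to 0.801 in glia), so the replicate number was treated as pairing in the blocked fit. Fractions of a pool come from the same mice. Pools of different mice are the replicates, 3 a group.

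DESeq2 1.42.0, other filters and scalings, separate fits, the block and omitted libraries were the alternatives. The fit without all replicate 3 libraries was chosen after seeing the data. Figures were drawn with matplotlib 3.10.9.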

Additional observations from a re-analysis of the deposited data

Results flagged for a closer look

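Amotl2 was lower in KA than in SH glia in all 3 same-numbered pairs (log2 differences of -0.86, -1.75 and -1.64) and higher in KA than in SH neurons in all 3 (0.86, 0.06 and 0.21), and these opposite directions drew it out for a closer look. The neuronal groups overlapped. The KA against SH logFC in neurons less that in glia was 1.71 ± 0.53 (SE), and no test of this difference is given, since Amotl2 was chosen on these contrasts.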

How the results depend on the processing

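Counts at FDR 0.25 are given for members in neurons (1), members in glia (5), pathway genes in neurons (1) and pathway genes in glia (3), and at FDR 0.05 for members between SH fractions (4); only counts that moved by over 1.5 times are listed. With no filter on low counts, members and pathway genes in glia were 1 and 1. With at least 10 counts in every library, where Ankrd1 was not tested, members in neurons were 4 and pathway genes 6 in neurons and 6 in glia. DESeq2 gave 3 members and 3 pathway genes in neurons, and edgeR's newer quasi-likelihood fit gave 2 members there. Without the 2 low-input libraries members in glia were 0, pathway genes in glia 0 and members between fractions 2. The replicate block gave 4 members and 7 pathway genes in neurons and 11 pathway genes in glia. Separate fits gave 3 members and 6 pathway genes in neurons, and 3 and 1 in glia. At FDR 0.05 all were 0 except 1 pathway gene in glia, and at FDR 0.25 members between fractions were 7. Without all replicate 3 libraries the KA against SH counts were 0 and the fractions gave 2. With 1 library left out, members ranged from 0 to 2 in neurons, 0 to 4 in glia and 2 to 5 between fractions, and pathway genes from 0 to 2 in neurons and 0 to 3 in glia. The share of all genes called is given above for the replicate block, the separate fits and DESeq2. For the other alternatives it is not given, so a moved count there may only follow how many genes the fit called.

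The logFC of Yap1 between SH fractions turned to -0.16 under RLE, -0.17 with no filter, -0.33 with at least 10 counts, -0.16 in DESeq2, -0.42 without low-input libraries, -0.045 with the replicate block, -0.29 without all replicate 3 libraries and -0.49 to 0.34 with 1 library left out. That of Ankrd1 was 0.0083 with the block. Fewer libraries or genes entered some of these fits by construction; otherwise the cause was not tested. Of 557 values of single genes under alternatives, 428 kept their direction and side of the threshold. These include genes with no call in either fit, so they do not measure how stable the calls were. A call was lost in 82 and gained in 28. The sign turned in 10, and in 9 more for members without a KA against SH call. The low counts of Ajuba and Ankrd1 limit what could be detected for them.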
